A study of Ovis aries with 30 samples.

Results

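The aryl hydrocarbon receptor pathway was examined as 8 genes: the receptor AHR, its partner ARNT, the repressor AHRR, and the targets CYP1A1, CYP1A2, CYP1B1, TIPARP and NQO1. Rows were taken by gene name from the deposited count table, which held 28524 rows. Of the 8 genes, 6 had a row. CYP1A2 and CYP1B1 had none under these names and were not analysed here. The set was chosen by the level of CYP1A1 in earlier results of these data, in which its normalized counts were higher in treated lambs than in controls, so the levels of CYP1A1 in the groups are given as a description, without a test of their differences. The question asked of the other genes was whether further targets of the receptor, or a second gene of the CYP1A family, were higher together with CYP1A1.

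The data were RNA-seq counts of brown adipose tissue (BAT) and thyroid tissue from 15 newborn Romney lambs, 1 library for each tissue of each lamb. A cold group of 6 spent 2 days in a room at 4 °C, an ambient group of 6 spent 2 days at 20 to 22 °C, and 3 control lambs were sampled about a day after birth, with no stay in the rooms. The lambs were of both sexes, the heavier twin of each pair, and the treated lambs stayed with their ewe and sibling. Ewes of treated lambs ate bought roughage and grain pellets during the stay, after lambing on pasture, while controls were sampled soon after they came indoors. Treated lambs were also 2 days older than controls, so treatment, age, housing and the ewe's feed cannot be told apart in a comparison with controls, and lambs of equal age meet only in cold against ambient. The paper states that 1 control was left out in both tissues because its counts were outliers. The study's own tables used the other 2, lambs 237 and 246, and so did the comparisons here. Values with the third control, lamb 238, are given beside the results whose call or size it changed.

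The aryl hydrocarbon receptor is a ligand-activated transcription factor of the bHLH-PAS family. It waits in the cytoplasm in a complex with the chaperone HSP90 and its helpers, enters the nucleus when a ligand binds, pairs with ARNT and switches on genes that carry its response elements. Its ligands include planar aromatic pollutants, plant indoles and products of tryptophan breakdown. CYP1A1, a monooxygenase that oxidises such ligands, is the classical target; AHRR and TIPARP are targets that dampen the receptor in return, and NQO1 is shared with the oxidative stress factor NRF2.

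CYP1A1 was nearly absent from both tissues of the 2 controls. On a scale common to both tissues it averaged 50.1 normalized counts in BAT and 217 in thyroid tissue of ambient lambs, and 2149 and 1266 in these tissues of cold lambs. In cold against ambient lambs the log2 differences of AHRR, TIPARP and NQO1 were above 0 in both tissues, from 0.26 to 1.51, and 1 of them passed the call rule. Against controls, TIPARP and thyroid NQO1 were lower in treated lambs, where CYP1A1 was higher. NQO1 was upregulated in BAT of cold against ambient lambs (log2FC 1.05), but was downregulated in thyroid tissue of both treated groups against controls. TIPARP was downregulated in BAT of ambient lambs against controls. AHRR had too few reads in BAT for the call rule, 1 to 15 per ambient library. On the scale of log2(normalized count + 1) it was higher there in cold than in ambient lambs by 1.51 (exact permutation p = 0.0130, not adjusted). This value is not an edgeR log2FC like the others. AHR, ARNT and, in thyroid tissue, AHRR passed the call rule in no comparison between treatments.

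Libraries of BAT held between 31556500 and 37025998 assigned counts, of which 43.8% to 76.5% fell on 2 rows without a symbol, LOC114112617 and LOC114115287, leaving 8093700 to 18276329 counts for all other rows. In thyroid libraries the totals were 25062784 to 30124871 and the rest after these rows was 18098434 to 26929601. Counts were scaled by the 3 reference genes of the study (ACTB, RPL19 and HUWE1), and a scaled count is called a normalized count below. Scaling was done in each tissue alone, so these values compare lambs within a tissue and not the tissues, except where a common scale is named. The share of all tested genes that were called is given as the background of each comparison. A gene entered a test when it had at least 10 reads in at least 10 libraries, and a call needed |log2FC| ≥ 1 with an edgeR adjusted p-value under 0.05. The thyrocyte list summed to between 1322903 and 5866872 normalized counts in thyroid libraries and to at most 1552 in BAT. The brown adipocyte list summed to 809 to 27902 in BAT and to at most 2832 in thyroid tissue, not counting the third control, which reached 88116 and 12093. Each library came from bulk tissue, in which fewer cells of a type and less RNA per cell cannot be told apart. Where groups are said to overlap or not, the share of all genes that did the same was not counted. Such statements describe the values, and with 2 controls they are weak. Within a tissue, p-values measure the spread between these lambs. In comparisons between tissues, the fit took the 2 libraries of a lamb as unpaired, unless the lamb is named as a replicate block.

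AHR, the ligand-binding receptor (chromosome 4, positions 29270128 to 29320681, plus strand of Oar_rambouillet_v1.0), was present in every library of both tissues. In BAT, its normalized counts were 539 and 808 in the 2 controls, 338 to 703 (median 612) in ambient lambs and 333 to 800 (median 530) in cold lambs. In thyroid tissue they were 1855 and 2228 in controls, 1262 to 2210 (median 1959) in ambient and 1588 to 2474 (median 1991) in cold lambs. The groups overlapped in both tissues. The log2FC of cold against control was -0.31 ± 0.31 (SE) in BAT, with an edgeR adjusted p of 0.648 and an interval of -0.92 to 0.30, and -0.03 ± 0.22 in thyroid tissue, with an edgeR adjusted p of 0.934 and an interval of -0.46 to 0.40. The sign of the thyroid value depended on the scaling, since edgeR's TMM scaling turned it to 0.27 and that of ambient lambs from -0.20 to 0.14.

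ARNT, the partner that the receptor needs to bind DNA (chromosome 1, 106523181 to 106559213, minus strand), was lower in BAT of all 6 ambient lambs than in either control. Its normalized counts in BAT were 386 and 441 in controls, 164 to 355 in ambient and 226 to 403 in cold lambs. The differences did not pass the call rule (ambient against control -0.72 ± 0.25, edgeR adjusted p = 0.0836; cold against control -0.53 ± 0.25, edgeR adjusted p = 0.280). In thyroid tissue the controls had 1282 and 1304 and the treated lambs 581 to 1288. The third control was at 472 there, below every treated lamb, on the scale that includes it. Values of AHR and ARNT in cold against ambient lambs lay between -0.07 and 0.19 in the 2 tissues.

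AHRR, which competes with the receptor for ARNT and is itself induced by it (chromosome 16, 78167473 to 78240974, minus strand), had few reads. In BAT its counts ran from 1 to 27 per library and it missed the filter on low counts. Normalized counts in BAT were 7.26 to 18.3 (median 11.3) in cold lambs and 1.07 to 8.22 (median 3.42) in ambient lambs, with 8.02 and 7.02 in the 2 controls. Of the 6 cold lambs, 4 exceeded every ambient lamb. On the log2(normalized count + 1) scale, cold lambs were 1.51 ± 0.46 (SE) above ambient lambs, with a 2-sided exact permutation p of 0.0130 that is not adjusted for other tests. Against the 2 controls, cold lambs differed by 0.53 (exact permutation p = 0.214) and ambient lambs by -0.98 (exact permutation p = 0.321), where the smallest p the design allows is 0.0357; with all 3 controls the cold value was 0.81, with an exact permutation p of 0.0476.

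In thyroid tissue AHRR passed the filter. The 6 cold lambs had 27.1 to 55.0 normalized counts, above the 5.29 and 26.1 of the controls, and ambient lambs had 11.7 to 45.6. The log2FC was 1.33 ± 0.62 for cold against control (edgeR adjusted p = 0.139), 0.71 ± 0.60 for ambient against control (edgeR adjusted p = 0.415) and 0.62 ± 0.39 for cold against ambient (edgeR adjusted p = 0.923). These calls depended on which controls were used. When the third control (3.07 normalized counts) took the place of lamb 237, both comparisons with controls passed the call rule, at 3.20 for cold (edgeR adjusted p = 0.00577) and 2.59 for ambient lambs (edgeR adjusted p = 0.0166). The thyroid library of lamb 237 also held 256021 normalized counts of skeletal muscle markers, against 60.8 in lamb 246. In the thyroid library of the third control, 27.8% of counts fell on the 2 rows without a symbol, against 5.18% to 14.9% in the other thyroid libraries. The part of either in the AHRR value was not tested.

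CYP1A1 (chromosome 18, 31804203 to 31810062, plus strand, 2595 exonic bases) had no read in BAT of the 2 controls. In BAT of ambient lambs the lowest, median and highest normalized counts were 1.65, 25.1 and 79.1, and in cold lambs 245.5, 831 and 3271. Every cold lamb lay above every ambient lamb, and the lowest cold lamb was more than 3 times the highest ambient lamb. The mean was 30.3 ± 27.8 (SD, n = 6) in ambient and 1342 ± 1273 (SD, n = 6) in cold lambs, so cold lambs had 44.3-fold more, with a counting interval of 38.4 to 51.5 that leaves out the spread between lambs. Controls with no read were counted at a floor of 3 reads per library, scaled by the smaller size factor of the 2 controls. Against this floor, cold lambs were at least 335-fold higher and ambient lambs at least 7.55-fold higher.

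The third control did not share the zero. Its BAT library held 11 CYP1A1 reads, or 22.5 normalized counts, inside the range of the ambient lambs, 3 of which exceeded it. With all 3 controls the ratio to the control mean was 172-fold for cold (counting interval 96.4 to 346) and 3.96-fold for ambient lambs (2.21 to 7.93). All 6 cold lambs stayed above the 3 controls.

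In thyroid tissue the controls had 6 reads (lamb 237), 1 read (lamb 246) and, in the third control, none. Ambient lambs had 19.8, 328 and 676 normalized counts as lowest, median and highest, and cold lambs 484.5, 1762 and 4224. Here the treated groups overlapped, because cold lamb 244 (484.5) lay below ambient lambs 241 (676) and 233 (516), while the other 5 cold lambs lay above all ambient lambs. Cold lambs averaged 2020 ± 1483 (SD, n = 6) and ambient lambs 347 ± 229 (SD, n = 6), a ratio of 5.82 (counting interval 5.58 to 6.07). The ratio to the 2 controls was 515 (250 to 1282) for cold and 88.6 (43.0 to 220) for ambient lambs, resting on 7 control reads in all. With all 3 controls these ratios were 768 (373 to 1910) and 133 (64.4 to 330). The log2 ratio of ambient lambs to the controls became 8.04 when the third control replaced lamb 237 and 5.74 when it replaced lamb 246, and that of cold lambs became 10.6 and 8.28.

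**Figure D1:**
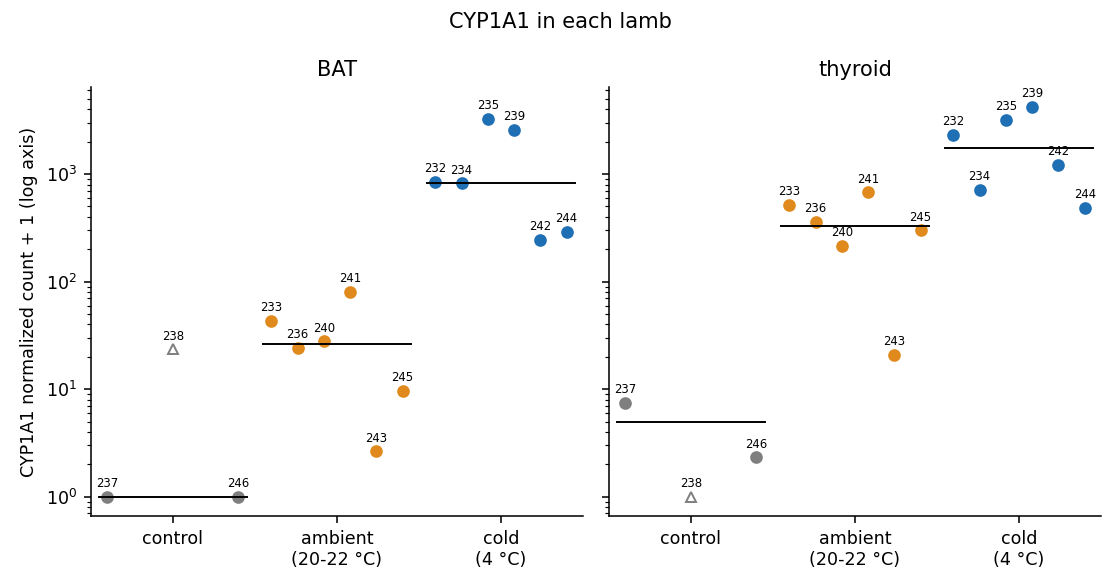
CYP1A1 normalized count plus 1 (log axis) in BAT and thyroid tissue of each lamb, labelled by lamb number, with group medians as lines; open triangles are the third control, on the scale that includes it. Cold lambs sit above all ambient lambs in BAT (245.5 to 3271 against 1.65 to 79.1), while in thyroid tissue the groups meet at lamb 244.

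On 1 common scale for the 28 libraries, the order of the mean levels of CYP1A1 was BAT cold (2149), thyroid cold (1266), thyroid ambient (217), BAT ambient (50.1), thyroid control (2.46) and BAT control (0). Neighbours in this order overlapped, except the 2 control groups at its end. Per kilobase of exon on this common scale, CYP1A1 in BAT of cold lambs averaged 828 normalized counts, against 221 for NQO1, 195 for ARNT, 178 for AHR, 75.0 for TIPARP and 6.45 for AHRR, the highest mean of the 6 there. In ambient BAT the same measure was 19.3 for CYP1A1 and 191 for AHR. In thyroid tissue of cold lambs it was 488 for CYP1A1 and 476 for NQO1.

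The choice of the set rested on differences between groups, and relations among lambs of 1 group were tested apart from it; none of 22 passed after Benjamini-Hochberg adjustment (lowest adjusted p 0.253 for r and 0.323 for rho). Lambs 235 and 239 had the highest CYP1A1 in BAT (3271 and 2585) and in thyroid tissue (3175 and 4224) among cold lambs, and ambient lamb 241 was the highest and lamb 243 the lowest of its group in both. Within cold lambs Pearson's r of log2(normalized count + 1) between the tissues was 0.79 (exact permutation p = 0.0694) and Spearman's rho 0.77 (exact permutation p = 0.103), and r was 0.88 without the 2 lambs farthest from the median. Within ambient lambs r was 0.91 (exact permutation p = 0.0139) and rho 0.83 (exact permutation p = 0.0583), but r was 0.42 without the 2 farthest lambs, so that the relation rested on them.

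**Figure D2:**
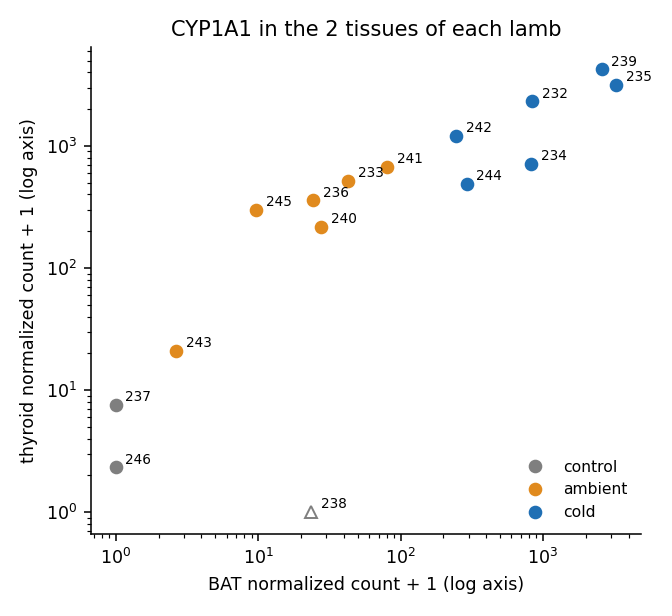
CYP1A1 normalized count plus 1 in thyroid tissue against BAT of the same lamb (both log axes), labelled by lamb number; the open triangle is the third control. Lambs 235 and 239 are at the top of both axes, lamb 243 is the lowest ambient lamb on both, and the third control has reads in BAT only.

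The other genes of the CYP1 family could not be followed by name. In the human genome CYP1A2 lies beside CYP1A1, in the opposite orientation and towards CSK. In the deposited table a single row, LOC101109214 (chromosome 18, 31778314 to 31785253, minus strand), lay between CSK and CYP1A1; the files give it no symbol, and it was looked at for its position after the values of CYP1A1 were known. It had between 0 and 5 reads per library, 13 in total in BAT of cold lambs, 1 in ambient lambs and 0 in controls, and 5, 2 and 0 in thyroid tissue. Because multimapping reads entered every gene they matched, any reads it shares with CYP1A1 cannot be told apart from its own. In BAT of cold lambs this neighbour averaged 1.90 normalized counts where CYP1A1 averaged 1342. Of 14 further rows named CYP and a digit, 2 were tested in BAT and 4 in thyroid tissue. Between treatments CYP17 alone passed the call rule, upregulated in thyroid tissue of cold (1.46 ± 0.49, edgeR adjusted p = 0.0471) and ambient lambs (1.56 ± 0.49, edgeR adjusted p = 0.0354). Of all genes, 1.89% and 1.82% were called as higher in these 2 comparisons with controls. CYP17 is named like CYP17A1, a steroid hydroxylase with a row of its own (1.43 ± 0.63, edgeR adjusted p = 0.117 for cold), and reads shared between the 2 rows cannot be told apart.

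TIPARP, an ADP-ribosyltransferase that modifies the receptor and limits its activity (chromosome 1, 251635917 to 251664303, minus strand), was lower in treated lambs than in controls. In BAT its normalized counts were 243 and 193.5 in the 2 controls, 76.4 to 151 (median 101) in ambient and 83.8 to 179 (median 134) in cold lambs. No treated lamb reached a control. The log2FC was -1.06 ± 0.28 for ambient against control, which passed the call rule (edgeR adjusted p = 0.0282, range over the alternatives 0.00251 to 0.0620), and -0.72 ± 0.29 for cold against control (edgeR adjusted p = 0.189). Among the 14905 genes tested in BAT, 6.07% were called in ambient against control, 2.86% as higher and 3.21% as lower, and TIPARP was 1 of 4 members tested. The call ended under TMM scaling (-0.98), without lamb 233 (-0.98) and without lamb 240 (-1.01, edgeR adjusted p = 0.0620). The third control held 1251 normalized counts of TIPARP in BAT. With all 3 controls the log2FC was -2.43 for ambient (edgeR adjusted p = 0.00488) and -2.09 for cold lambs (edgeR adjusted p = 0.0160), and the cold value passed the call rule too.

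In thyroid tissue TIPARP was at 491 and 336 normalized counts in controls, 143 to 267 in ambient and 224 to 280 in cold lambs, again without overlap, also when the third control was counted. Its log2FC was -0.98 ± 0.23 in ambient lambs (edgeR adjusted p = 0.0105) and -0.72 ± 0.23 in cold lambs (edgeR adjusted p = 0.0440), under the fold limit in both. Without ambient lamb 236, 240 or 245 the ambient value passed that limit (-1.01 to -1.06). In these thyroid comparisons the 16122 genes as a whole lay below 0, with a median of -0.28 in each. TMM scaling moved that median to 0.02 and 0.05, and TIPARP to -0.45 (edgeR adjusted p = 0.241) and -0.69 (edgeR adjusted p = 0.0806) for cold and ambient lambs. Cold against ambient lambs, TIPARP differed by 0.34 ± 0.21 in BAT (edgeR adjusted p = 0.519) and 0.26 ± 0.17 in thyroid tissue (edgeR adjusted p = 0.923), with intervals of -0.07 to 0.76 and -0.08 to 0.60.

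NQO1, a quinone reductase controlled by the receptor and by NRF2 (chromosome 14, 39549819 to 39563051, minus strand), was the only member called between cold and ambient lambs. In BAT its normalized counts were 99.3 to 143 (median 119) in ambient lambs and 170 to 328 (median 256) in cold lambs, and the groups did not overlap. Both controls, at 152 and 259, lay above the ambient lambs; one was below all cold lambs and the other in their midst. The third control was at 119, among the ambient lambs. NQO1 was upregulated in BAT of cold against ambient lambs with a log2FC of 1.05 ± 0.20 (edgeR adjusted p = 0.0374, unadjusted p = 8.48e-05), where 41 of 14905 genes were called, 0.275% of them, with 0.188% as higher and 0.0872% as lower. Against controls the log2FC was 0.28 ± 0.29 in cold lambs (edgeR adjusted p = 0.656) and -0.78 ± 0.27 in ambient lambs (edgeR adjusted p = 0.0852). In cold against control, 1.21% of all genes were called (0.577% as higher, 0.637% as lower) and 0 of the 4 members by edgeR or DESeq2, and an unadjusted p under 0.05 was reached by TIPARP alone.

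The size of this NQO1 change varied little while its call did not hold. Over 20 alternatives the log2FC stayed between 0.93 and 1.15, and the edgeR or DESeq2 adjusted p ranged from 0.000535 to 0.174. The call ended with all 3 controls (edgeR adjusted p = 0.125), with the RNA integrity number as a covariate (0.0518) and in 11 of the fits that left out 1 lamb, 2 of which replaced a control; of the treated lambs, only leaving out cold lambs 242 and 244 and ambient lamb 236 kept it. Smooth muscle and pericyte markers summed to 15230 to 27542 normalized counts in BAT of cold lambs and 8867 to 18137 in ambient lambs. All 5 genes had a log2FC above 0 (median 0.79), but 0 of these 5 and 0 of 8 endothelial markers were called, beside 0.275% of all genes. The part of these markers in the NQO1 and CYP1A1 values was not tested. Within cold lambs, NQO1 in BAT was higher where CYP1A1 was higher (r = 0.87, exact permutation p = 0.0431, Benjamini-Hochberg adjusted 0.253; rho = 0.77, exact permutation p = 0.103; r = 0.87 without the 2 farthest lambs). Within ambient lambs the same r was -0.17 (exact permutation p = 0.787).

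In thyroid tissue NQO1 went the other way. Its normalized counts were 3935 and 4315 in controls, 679 to 1944 (median 922) in ambient and 1028 to 2157 (median 1294) in cold lambs. It was downregulated in cold (-1.57 ± 0.31, edgeR adjusted p = 0.00546) and ambient lambs (-1.96 ± 0.31, edgeR adjusted p = 0.00170) against the same controls. These comparisons called 8.04% and 7.8% of all genes, 1.89% and 1.82% as higher and 6.15% and 5.98% as lower, and 1 of 5 members each. Under TMM scaling, which turned the split of all called genes from 305 upregulated and 991 downregulated to 456 and 336 for cold, and from 294 and 964 to 474 and 270 for ambient lambs, NQO1 was at -1.27 (edgeR adjusted p = 0.0178) and -1.65 (edgeR adjusted p = 0.00621).

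The thyroid NQO1 result turned on which controls were used. The third control had 933 normalized counts, among the treated lambs. With all 3 controls NQO1 stayed called at -1.14 in cold (edgeR adjusted p = 0.0494) and -1.53 in ambient lambs (edgeR adjusted p = 0.0155). When it replaced lamb 237 the calls ended, at -0.92 (edgeR adjusted p = 0.169) and -1.30 (edgeR adjusted p = 0.0517), and when it replaced lamb 246 they ended at -0.82 (edgeR adjusted p = 0.219) and -1.20 (edgeR adjusted p = 0.0773). Ambient lamb 240, the highest of its group in thyroid NQO1 (1944), also held 3025793 normalized counts of skeletal muscle markers, against 154 for the lowest ambient lamb; its part in the value was not tested. In cold against ambient lambs the thyroid log2FC of NQO1 was 0.39 ± 0.24 (edgeR adjusted p = 0.923), with an interval of -0.07 to 0.85. No gene at all was called in that comparison by edgeR (0%), although 870 of 16122 genes had an unadjusted p under 0.05, none of them a tested member, and DESeq2 called 2 genes.

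**Figure D3:**
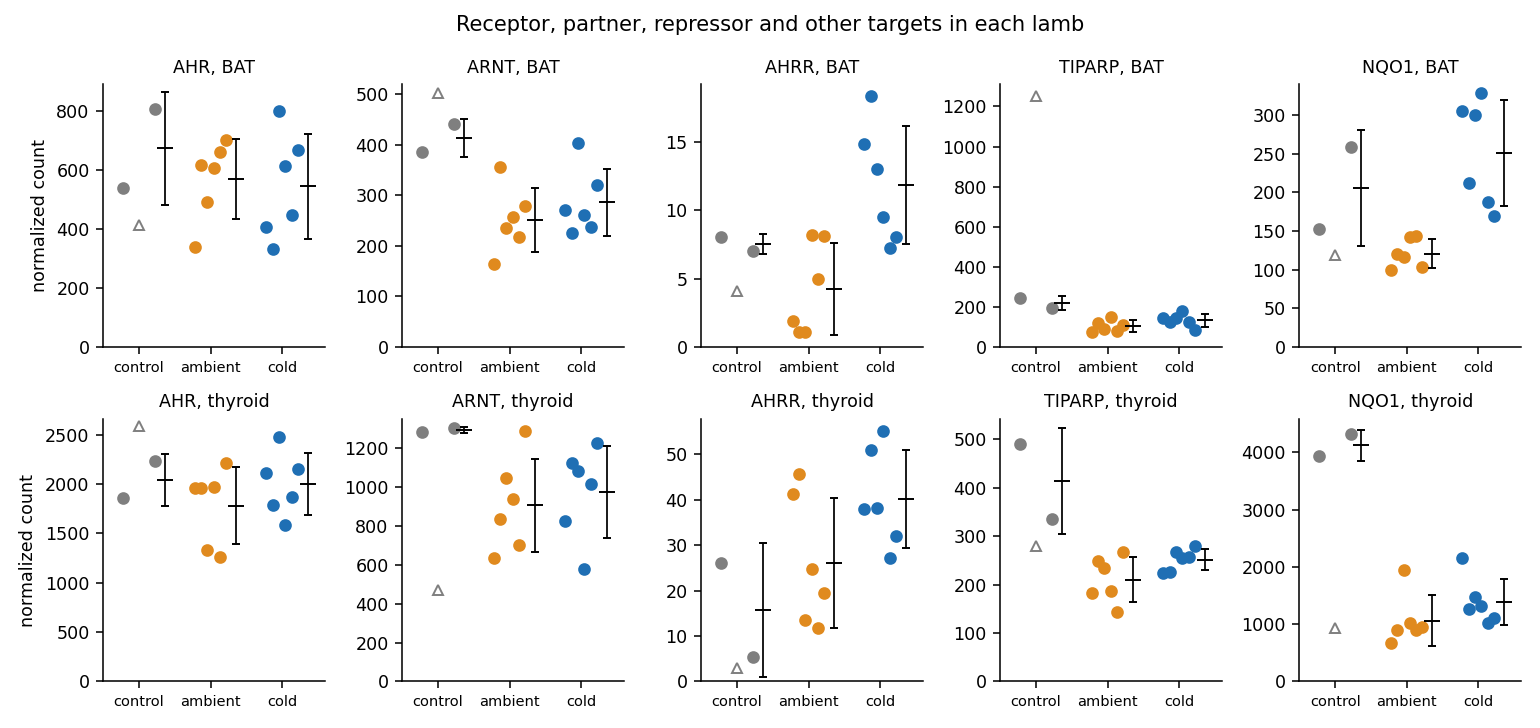
Normalized counts of AHR, ARNT, AHRR, TIPARP and NQO1 in each lamb, BAT above and thyroid tissue below, with group mean ± SD (2 controls, 6 ambient, 6 cold) beside the points; open triangles are the third control, on the scale that includes it and left out of the mean. NQO1 in BAT separates cold (170 to 328) from ambient lambs (99.3 to 143), and the third control stands at 1251 for TIPARP in BAT.

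Whether the tissues differed in these changes was tested directly. Of 15 tests of the difference between BAT and thyroid tissue (5 members, 3 comparisons), none passed in the fit that left the tissues of a lamb unpaired. With the tissues paired, 1 passed. Unpaired, the lowest edgeR adjusted p was 0.0847, for NQO1 in cold against control, where BAT exceeded thyroid tissue by 1.87 ± 0.46. Of all 17021 genes, 0.188% were called there (0.165% as higher and 0.0235% as lower in BAT), and 1.62% in the same difference for ambient against control (1.46% and 0.153%). With the lamb as a replicate block, which pairs the tissues of each animal, this NQO1 difference was 1.92 ± 0.34 (edgeR adjusted p = 0.0296) and passed. Without ambient lamb 240 it passed in cold (1.87, edgeR adjusted p = 0.0176) and in ambient lambs against control (1.49, edgeR adjusted p = 0.0289). TIPARP differed between the tissues by 0.03 in cold and -0.04 in ambient against control, but by -2.11 and -2.14 (edgeR adjusted p = 0.0476 and 0.0227) when the third control replaced lamb 237, and by -1.90 in ambient lambs (edgeR adjusted p = 0.0459) when it replaced lamb 246. NQO1 was lower in BAT than in thyroid tissue in all treatments, by -1.11 in cold, -1.76 in ambient and -2.98 in control lambs (edgeR adjusted p = 0.000149, 3.79e-07 and 3.77e-06). AHRR missed the filter in BAT alone and entered these fits of both tissues mostly through its thyroid reads. The filter thus favoured its call as lower in BAT of ambient lambs (-1.16 ± 0.47, edgeR adjusted p = 0.0340). That call ended without lamb 233, 236 or 240, when the third control replaced lamb 246, and with all 3 controls. TIPARP in controls was at 0.42 ± 0.33 (edgeR adjusted p = 0.341), but at 1.959 with all 3 controls (edgeR adjusted p = 0.000916), which passed. In these tissue comparisons 39.9% of all genes were called in cold (26.6% as higher and 13.3% as lower in BAT), 39.7% in ambient (26.8% and 12.9%) and 30.6% in control lambs (16.5% and 14.1%).

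**Figure D4:**
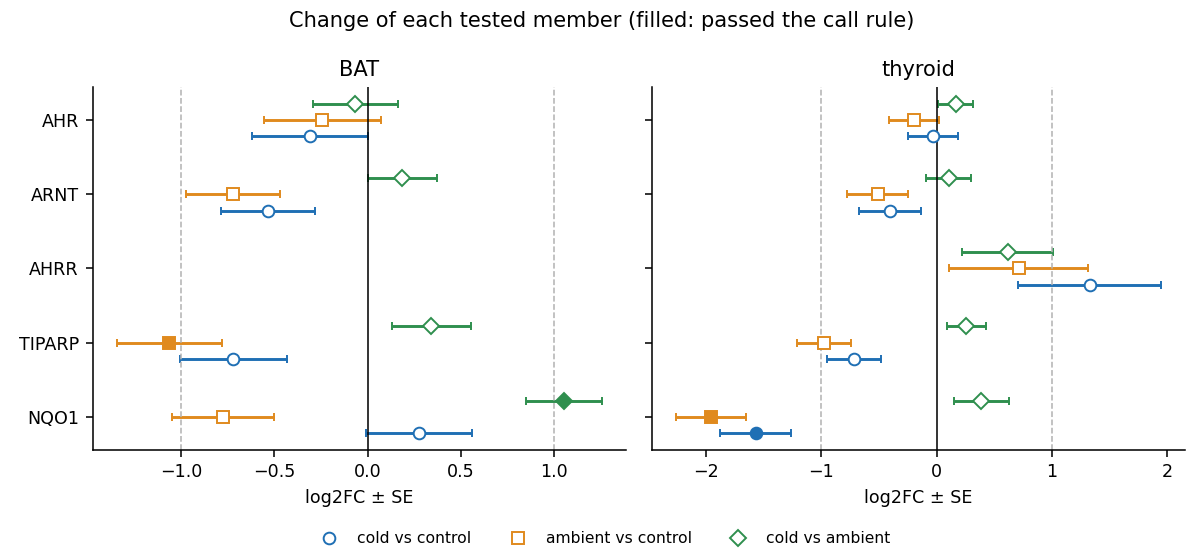
Log2FC ± SE of the 5 tested members in BAT and thyroid tissue for the 3 comparisons; filled symbols passed the call rule and dashed lines mark a log2FC of 1 in either direction (AHRR in BAT missed the filter). NQO1 lies at 1.05 in BAT for cold against ambient and at -1.57 and -1.96 in thyroid tissue against controls.

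The wider pathway was followed through lists of genes with known roles. Of 18 other genes known as targets of the receptor in some tissue, 15 had a row and 8 passed the filter. None was upregulated in a comparison between treatments in either tissue. Of all genes, 0% to 2.86% were called as higher in these comparisons, so 0 of 8 does not set the list apart. SLC7A5, an amino acid transporter, was downregulated in BAT of cold lambs at -1.81 ± 0.29 (edgeR adjusted p = 0.0112) and of ambient lambs at -1.55 ± 0.30 (edgeR adjusted p = 0.00722). In thyroid tissue it was downregulated in cold lambs, at -1.67 ± 0.47 (edgeR adjusted p = 0.0262). In BAT it stood at 263 and 265 normalized counts in controls and at 40.8 to 118 in treated lambs. CDKN1A, a cell cycle inhibitor, was called lower in thyroid tissue of cold lambs (-3.75 ± 1.21, edgeR adjusted p = 0.0477), with controls as far apart as 859 and 5361. HES1, a Notch effector, was called lower in ambient thyroid (-1.04 ± 0.27, edgeR adjusted p = 0.0168). As lower than in controls, 0.637% and 3.21% of all genes were called in BAT of cold and ambient lambs, and 6.15% and 5.98% in thyroid tissue. GSTA1, SCIN and PTGS2 had log2FC values above 0 in BAT of cold lambs (4.21 ± 1.48, 1.29 ± 0.71 and 0.58 ± 0.52) with edgeR adjusted p of 0.151, 0.362 and 0.592. The list's median log2FC in BAT was -0.0012 for cold against control and -0.13 for cold against ambient, beside -0.10 and -0.05 for all genes.

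Of the proteins that hold and assist the receptor, 0 of 7 were called in BAT by edgeR in each of the 3 treatment comparisons. The share of all genes called there was 0.275% to 6.07%. HSP90AA1, the stress-inducible form of HSP90, had 21881 and 29396 normalized counts in BAT of controls, 9627 to 21567 in cold and 9794 to 16861 in ambient lambs, so all treated lambs lay below both controls; its log2FC was -0.76 ± 0.26 for cold (edgeR adjusted p = 0.135) and -0.83 ± 0.26 for ambient lambs (edgeR adjusted p = 0.0548). In thyroid tissue of cold lambs it was downregulated (-1.09 ± 0.23, edgeR adjusted p = 0.00747), beside 6.15% of all genes called as lower. The list's median log2FC there was -0.67 for cold and -0.47 for ambient lambs against control, beside -0.28 for all genes. ARNT2, a second partner, was at 0.98 ± 0.48 in cold BAT (edgeR adjusted p = 0.292).

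NQO1 is shared with NRF2, so the other NRF2 targets were read beside it. In BAT 0 of 13 tested were called between treatments, beside 0.275% to 6.07% of all genes. Their median was -0.47 in cold against control, with 2 of 13 above 0, -0.16 in ambient against control and -0.13 in cold against ambient, beside -0.10, -0.03 and -0.05 for all genes. SRXN1 was at -0.83 ± 0.19 in ambient BAT (edgeR adjusted p = 0.0139), under the fold limit. In thyroid tissue 3 of 14 were downregulated in cold and 4 of 14 in ambient lambs, beside 6.15% and 5.98% of all genes, and none upregulated, with medians of -0.57 and -0.68 beside -0.28 for all genes. Those called in both groups were PRDX1, a peroxiredoxin (-1.26 ± 0.20 and -1.39 ± 0.20, edgeR adjusted p = 0.00205 and 0.00109), SRXN1, which reactivates peroxiredoxins (-1.68 ± 0.27 and -1.96 ± 0.27, edgeR adjusted p = 0.00227 and 0.00104), and ME1, which supplies NADPH (-1.99 ± 0.50 and -1.76 ± 0.51, edgeR adjusted p = 0.0167 and 0.0259). HMOX1, haem oxygenase, was called in ambient thyroid alone (-2.03 ± 0.60, edgeR adjusted p = 0.0309), at -0.45 ± 0.64 in cold thyroid (edgeR adjusted p = 0.656); the cold and ambient groups differed by 1.58 ± 0.47, which did not pass (edgeR adjusted p = 0.911). Both treated groups share their controls.

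**Figure D5:**
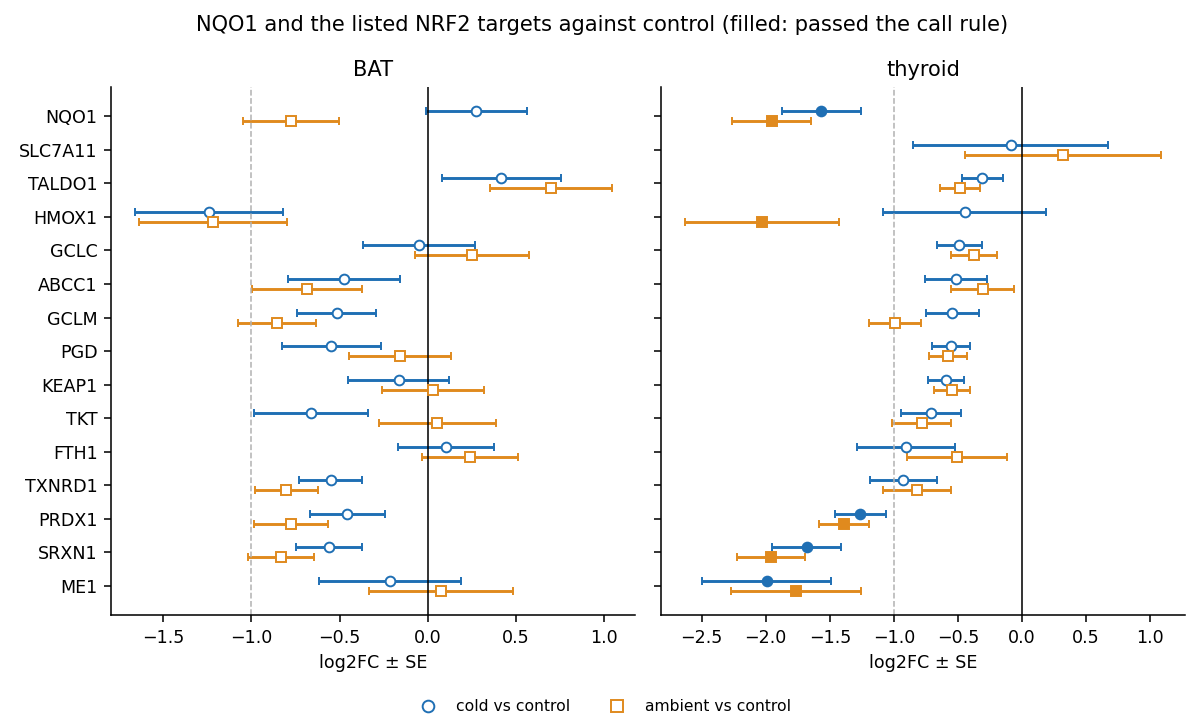
Log2FC ± SE of NQO1 (top) and the listed NRF2 targets against control in BAT and thyroid tissue; filled symbols passed the call rule and the dashed line marks a log2FC of -1. In thyroid tissue NQO1, PRDX1, SRXN1 and ME1 passed in both treated groups and HMOX1 in ambient lambs; none of the listed targets passed in BAT.

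Genes that form or remove ligands from tryptophan gave 1 call between treatments. IL4I1, an amino acid oxidase, was downregulated in thyroid tissue of ambient lambs (-1.10 ± 0.26, edgeR adjusted p = 0.0105). It was 1 of 5 genes tested there, beside 5.98% of all genes called as lower. In BAT 0 of 6 tested genes were called, beside 0.275% to 6.07% of all genes. IDO1, which opens the tryptophan ring, was at 6.56 ± 2.57 in BAT of cold lambs against control (edgeR adjusted p = 0.189), with normalized counts from 5.43 to 1256 in these lambs, 5.97 to 112 in ambient lambs and 0.78 and 5.35 in controls. Of the genes that supply electrons and haem to cytochromes P450, 4 had a row and none was called between treatments in either tissue. The share of all genes called in these comparisons was 0% to 8.04%. ALAS1, the rate-limiting enzyme of haem synthesis, was at -0.08 ± 0.24 in cold BAT (edgeR adjusted p = 0.903). Among other bHLH-PAS factors NPAS1 alone was called between treatments, upregulated in thyroid tissue of cold (2.001 ± 0.58, edgeR adjusted p = 0.0282) and ambient lambs (2.43 ± 0.58, edgeR adjusted p = 0.0114), at 2.65 and 5.43 normalized counts in controls and 9.12 to 33.7 in treated lambs. Thyroid controls had at most 5 reads of NPAS1, so it passed the filter only through treated lambs, which favours a call as higher. Of all genes, 1.89% and 1.82% were called as higher in these comparisons. HIF1A, which also pairs with ARNT, stayed under the fold limit in thyroid tissue, at -0.79 ± 0.19 in cold lambs (edgeR adjusted p = 0.0144) and -0.94 ± 0.19 in ambient lambs (edgeR adjusted p = 0.00548).

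Markers of several cell types differed between treated lambs and controls, in bulk tissue where cell numbers and RNA per cell cannot be told apart. In thyroid tissue the 8 endothelial markers summed to 29274 and 46549 normalized counts in controls, 17719 to 24508 in cold and 17630 to 34474 in ambient lambs, and PECAM1 was downregulated in both treated groups (-1.30 ± 0.30 and -1.25 ± 0.30, edgeR adjusted p = 0.0106 and 0.0111). Of 5 fibroblast markers, 2 were upregulated in cold and 3 in ambient thyroid, and of 4 macrophage markers 2 and 1, beside 1.89% and 1.82% of all genes. In BAT the endothelial sum was 48223 to 78106 in cold, 48471 to 70260 in ambient and 72145 and 70232 in the control lambs, and 17041 in the third control. Hepatocyte markers summed in BAT to 36.7 to 1630 in cold, 166 to 2501 in ambient and 900 and 2535 in control lambs. Of the brown adipocyte markers, 0 of 6 were called in BAT, beside 0.275% to 6.07% of all genes in the 3 treatment comparisons. Their sum was nevertheless lower in treated lambs, at 4950 to 17284 in cold and 809 to 17035 in ambient lambs, against 27902 and 23466 in controls. In ambient BAT against controls, 1 marker each of the white adipocyte, endothelial, macrophage, and smooth muscle and pericyte lists was called lower, beside 3.21% of all genes. The part of these differences in the values of the pathway genes was not tested.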

How the data were processed

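Libraries of BAT and thyroid tissue of 15 lambs were made and processed by the authors, who trimmed reads with Trimmomatic 0.39, checked them with FastQC 0.11.9, aligned them to Oar_rambouillet_v1.0 with STAR 2.7.7a and counted them per gene with featureCounts (Subread 2.0.0), counting multimapping reads at each place; the strand setting is not given in the sources used here. The deposited values are raw counts. The study's controls were identified because its normalized counts were proportional to the deposited counts of lambs 237 and 246 (SD of log ratios at most 1.77e-06, next library 0.423). Of 28524 row names, 22250 were found in a RefSeq gene table, used for chromosome numbers only.

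Counts were analysed in R 4.3.3 with edgeR 4.0.16 (robust quasi-likelihood test, Benjamini-Hochberg adjustment over all tested genes), with size factors from ACTB, RPL19 and HUWE1 (0.537 to 1.84 in BAT, 0.741 to 1.21 in thyroid tissue), per tissue, or over 28 libraries for comparisons between tissues; DESeq2 1.42.0 was an alternative. The scripts were tested on simulated data. Genes named were the members, listed genes that passed the call rule with up to 4 examples a list, CYP rows and the 5 genes most like CYP1A1; members and lists were chosen with earlier results of these data known, and some listed genes are not reported here and were left out of the lists' counts and medians. Relations and patterns used log2(normalized count + 1). Marker sums are sums of normalized counts. Intervals of ratios cover counting error only, at 95.0%. Replicate numbers are lambs, so the same number in both tissues is the same animal per the labels; the deviations of its tissues from their group means correlated over genes with a median of 0.240 (range -0.00272 to 0.371) in the 12 treated lambs, 11 of which correlated best with their own number. Within a tissue no lambs are paired. No library was counted as a duplicate. Other alternatives were all 3 controls, TMM scaling, no filter, an RNA integrity covariate, adjusted p-values without a fold limit and leaving out each lamb. A control that was left out was replaced by the third control.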

Additional observations from a re-analysis of the deposited data

Results flagged for a closer look

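CYP1A1 in thyroid tissue of ambient lamb 243 stood apart from the other 5 ambient lambs, at 19.8 normalized counts against 216 to 676. On the log2(normalized count + 1) scale, its gap to the nearest lamb was 0.673 of the range of the group, above the limit of 0.625 for 6 samples. Of 24 groups tested in this way 1 passed, and chance passes about 1 in 20. The BAT library of the same lamb was the lowest of its group for CYP1A1 too, at 1.65 normalized counts from 1 read.

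CYP1A1 was found in BAT of the third control, which the comparisons leave out, at 22.5 normalized counts from 11 reads, where the other controls had none; the limit that a count of 0 allows is 3 reads. The thyroid library of that lamb held no CYP1A1 read. Its BAT library also stood apart for TIPARP (1251 normalized counts against 243 and 193.5) and for the summed brown adipocyte markers (88116 against 27902 and 23466).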

How the results depend on the processing

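Members called, with their main count first: all 3 controls gave 1 in place of 0 in BAT cold against control, 0 in place of 1 in BAT cold against ambient, 1 in place of 2 between the tissues of ambient lambs and 2 in place of 1 between those of controls. TMM scaling gave 0 in place of 1 in BAT ambient against control, the RNA integrity covariate 0 in place of 1 in BAT cold against ambient, and the adjusted p alone 2 in place of 1 in both thyroid comparisons with controls and 3 in place of 1 between the tissues of cold lambs. In the fits that left out single lambs, the third control took the place of a control left out. They gave 0 to 1 member in the 3 BAT comparisons, 0 to 1 in thyroid cold against control and 0 to 2 in thyroid ambient against control. In BAT cold against control the 1 came only from fits with a replaced control. Between tissues the fits gave 0 to 1 (cold), 1 to 2 (ambient) and 1 to 2 (control), and 0 to 1 in the tissue differences of cold and of ambient against control. AHRR in BAT, cold minus control, which is outside these counts, was 0.81 with all 3 controls, with an exact permutation p of 0.0476 that is not adjusted, in place of 0.214.

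With the lamb as a replicate block, 1 member (NQO1) in place of 0 passed in the tissue difference of cold against control, and TIPARP there turned to -0.019; the block changed no other call of a member.

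Values not called in the main fit turned sign as follows, where leaving out a control means that the third control replaced it. AHR: 0.0068 in BAT ambient against control with all 3 controls (-0.33 to 0.31 leaving out single lambs), -0.21 to 0.032 in BAT cold against ambient, -0.42 to 0.22 in BAT cold against control, 0.27 with TMM in thyroid cold (-0.29 to 0.016) and 0.14 in thyroid ambient against control; tissue differences 0.094 with all 3 controls (-0.37 to 0.38) for cold and -0.26 with TMM (-0.12 to 0.66) for ambient against control. ARNT: 0.13 with all 3 controls (-0.31 to 0.41) between tissues of controls, -0.65 to 0.035 and -0.49 to 0.14 in thyroid ambient and cold against control, and -0.036 to 0.18 for the tissue difference of cold against ambient. TIPARP tissue differences: -1.51 with all 3 controls and -0.14 with TMM (-2.11 to 0.16) for cold against control, -2.14 to 0.033 for ambient against control and -0.056 to 0.25 for cold against ambient. The log2 ratio of CYP1A1 in thyroid cold over control was 8.28 to 10.6 leaving out single lambs. The causes were not tested.

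The number of all called genes ranged over the alternatives from 99 to 981 (main 181) in BAT cold against control, 656 to 1386 (904) in BAT ambient against control, 0 to 145 (41) in BAT cold against ambient, 792 to 3110 (1296) and 744 to 3382 (1258) in thyroid cold and ambient against control, 0 to 2 (0) in thyroid cold against ambient, 11 to 378 (32), 141 to 1413 (275) and 0 to 6 (0) in the tissue differences of cold and ambient against control and of cold against ambient, and 6161 to 10860 (6756), 6434 to 10816 (6795) and 4948 to 6190 (5204) between tissues of ambient, cold and control lambs. TMM scaling gave 227 upregulated and 91 downregulated genes in BAT cold against control (86 and 95 in the main fit) and 649 and 366 in BAT ambient against control (426 and 478). The small number of controls limits every comparison with them, and 1 to 27 reads of AHRR per BAT library limit that gene.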

Other observations

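Over the 12 treated lambs, the 5 named genes whose pattern was most like that of CYP1A1 were LRRC8C, a subunit of a volume-regulated anion channel (Pearson's r 0.84 in BAT and 0.82 in thyroid tissue), ADSS, an enzyme of purine synthesis (0.78 and 0.80), SHROOM4, an actin-binding protein (0.77 and 0.81), ING2, a chromatin reader (0.74 and 0.73), and CD58, an adhesion ligand (0.73 and 0.75). They were ranked by the lower of the 2 values of r among 14402 genes, whose median was -0.06. The 12 points hold both the cold and the ambient group, so a gene that differs between these groups scores high, and the values are a description. SHROOM4 had 1937 to 4289 normalized counts in BAT of cold lambs, 842 to 2012 in ambient lambs and 3261 and 5097 in the 2 controls. LRRC8C had 57.6 to 115.5 in cold and 46.1 to 64.6 in ambient BAT, with controls at 94.9 and 111.6. None of these 5 was nearly absent from controls as CYP1A1 was.

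By the same measure, also a description that holds the difference between the groups, TIPARP (0.67 in BAT and 0.61 in thyroid tissue) came before all but 0.389% of the ranked genes and NQO1 (0.86 and 0.41) before all but 5.15%. Within cold and within ambient lambs, r of TIPARP with CYP1A1 was 0.75 and 0.51 in BAT and -0.10 and 0.55 in thyroid tissue. For NQO1 these values were 0.87 and -0.17, and 0.51 and -0.05. None of the 22 relations within groups passed after adjustment. ARNT (0.34 and -0.02) and AHR (-0.11 and 0.57) were exceeded by 43.4% and 57.3% of genes.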
